A study of Mus musculus with 6 samples.

Results

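Lung RNA of ICR mice was set against lung RNA of C57 mice, each measured once without and once with exposure to cigarette smoke. The comparison used 4 of the 6 arrays of the series, chosen by strain and exposure in the sample titles, as 2 ICR arrays (control and smoked) against 2 C57 arrays (control and smoked). Smoked mice of both strains had received the smoke of 3 cigarettes a day on 5 days a week for 4 weeks, and control mice had no stated exposure. The 2 DBA arrays, also control and smoked, entered the fit to estimate the spread and the exposure term and were also compared with ICR and C57. ICR is an outbred stock, whereas C57 names a family of inbred strains. The labels give neither the substrain nor the age, and they leave unsaid whether RNA of several mice was pooled. Each strain therefore had 2 arrays that differed in exposure. The p-values rest on a spread between arrays that was estimated from all 6 and shared in part over probe sets. Strain cannot be told apart from anything else in which the ICR and C57 samples differed.

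The lung holds gas-exchange epithelium coated with surfactant, conducting airways lined by secretory club cells and ciliated cells, a dense capillary bed and resident immune cells. Inbred strains are fixed for 1 allele at each gene, so a gene that reads lower in a strain may be less transcribed or may match the array's probes less well. A dissected lung can also hold neighbouring tissue such as striated muscle or the stratified lining of the oesophagus. In bulk tissue, fewer cells of a type and less RNA per cell cannot be told apart.

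After log2 transformation, quantile scaling and a filter on low signal, 7453 of 12422 probe sets were compared. At an adjusted p below 0.05 in limma (Benjamini-Hochberg), 170 probe sets (2.28%) were called, 69 higher in ICR (0.926%) and 101 lower (1.36%). An unadjusted p below 0.05 was found for 1342. Of the called probe sets, 149 carried 1 gene symbol, 9 several and 12 none. With 1 probe set per gene, 136 of 5735 genes were called, which is 2.37%, with 50 higher (0.872%) and 86 lower (1.5%). The counts of gene lists below are to be read beside these shares. In the same fit 84 probe sets (1.13%) were called between ICR and DBA and 129 (1.73%) between DBA and C57, and these contrasts share arrays with the main one. Without scaling between arrays the split was 7 higher and 138 lower, with a median over all probe sets of -0.73, and after scaling to a common median it was 50 higher and 179 lower, with a median of -0.14.

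All 170 called probe sets differed in the same direction in the control pair and in the smoked pair, and 141 of them by at least 2-fold in both. The fit counts disagreement between the 2 exposures as spread, so agreement among called probe sets follows largely from the calling itself. The fitted differences reached from -6.10 to 5.31 on the log2 scale, and the smallest in size was 0.79. Counted directly and with no test, 190 probe sets (2.55%) differed at least 2-fold in the same direction in both pairs, 83 higher in ICR (1.11%) and 107 lower (1.44%), against 12 (0.161%) in opposite directions. The control pair alone had 978 probe sets past 2-fold (13.1%) and the smoked pair 455 (6.10%). Values of the 2 strains did not overlap after scaling at 3818 probe sets (51.2%), so a lack of overlap is common with 2 arrays a strain. Across the 7453 probe sets, which are not independent replicates, the 2 differences correlated at a Pearson r of 0.451 and a Spearman rho of 0.350, and 61.7% had the same sign.

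**Figure D1:**
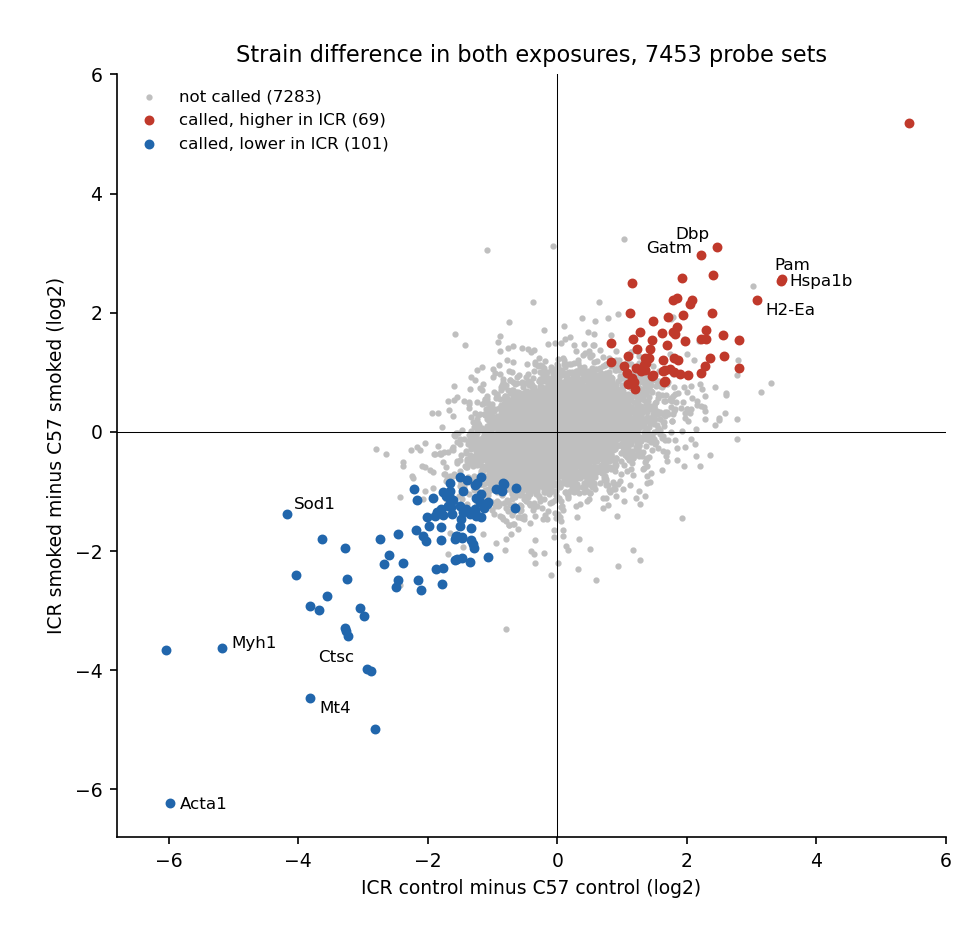
ICR minus C57 difference in the control pair (horizontal axis, log2) against the smoked pair (vertical axis, log2) for 7453 probe sets, with called probe sets in red (69 higher in ICR) and blue (101 lower). All called probe sets lie at the lower left or upper right, which the calling itself favours, with Acta1 at -5.98 and -6.22.

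The ICR smoked array stood apart. Its median deposited intensity was 25.9, against 52.2 for ICR control, 60.1 for C57 control, 60.5 for C57 smoked, and 68.7 and 84.8 in DBA. Its 3' to 5' signal ratio, a sign of RNA or cDNA length, was 4.75 for beta-actin and 2.39 for Gapdh, against 1.63 and 1.11 for ICR control, 2.75 and 1.69 for C57 control, and 2.51 and 1.38 for C57 smoked. The part of RNA quality in the results was not tested. The number of arrays limits the precision, and the calls depended on which array was left out. Fewer probe sets were called without ICR control, ICR smoked or C57 control, and more without C57 smoked or either DBA array. Of 81 called probe sets named here, 54 lost the call when ICR control was left out, 34 for ICR smoked, 27 for C57 control and 13 for C57 smoked. None of the 81 changed sign under any alternative.

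Lung identity was checked first. Sftpc, which encodes surfactant protein C of alveolar type II cells, read 9123 and 10344 in C57 (control, then smoked, here and below) and 7184 and 7359 in ICR. After scaling its difference was -0.14 (SE 0.14, limma adjusted p = 0.653). Scgb1a1, the main secretory protein of club cells, read 8040 and 9719 in C57 and 7737 and 7572 in ICR, a difference of 0.11 (SE 0.14, limma adjusted p = 0.738). Both were among the brightest genes on all 4 arrays. Quantile scaling gives the brightest probe sets nearly the same values on every array. The scaled differences of Sftpc and Scgb1a1 were therefore bound to be small and cannot show equal levels in the strains. Sftpb, surfactant protein B, was lower in ICR. It read 5192 and 6105 in C57 and 2603 and 1113 in ICR, with no overlap, and differed by -0.97 (SE 0.19, limma adjusted p = 0.0432), but it was not called without the C57 smoked, the ICR control or the ICR smoked array. Of 10 type II cell genes tested, Sftpb was the only one called, and the median of the 11 measured was -0.18, or -0.40 after scaling to a common median, beside -0.02 for all 8251 genes measured.

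Of 18 genes of fast skeletal muscle tested, 8 were called lower in ICR lung and 10 were not called, beside 86 lower and 50 higher of 5735 genes, and 24 of 25 measured members had a difference below 0 (median -1.60), beside 4258 of 8251 genes. Acta1, the actin of skeletal muscle thin filaments, read 3232 and 2468 in C57, 34.7 and 9.75 in ICR, and 404 and 108 in DBA. The strains did not overlap, and ICR was 68.6-fold lower (log2 -6.10, SE 0.38, limma adjusted p = 0.000297). Atp2a1, the calcium pump of the fast-fibre sarcoplasmic reticulum, read 738 and 468 in C57 and 32.5 and 21.5 in ICR (log2 -3.37, SE 0.29, limma adjusted p = 0.00120), and its second probe set was also called (-3.22).

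The other called muscle genes were the troponins Tnnt3 (-3.33) and Tnnc2 (-3.16), the myosin light chain Myl1 (-2.86), the Z-disc protein Actn3 (-3.30), muscle glycogen phosphorylase Pygm (-1.65) and the fast myosin heavy chain Myh1. Myh1 read 457 and 248 in C57 and 2.26 and 5.01 in ICR, both below the added constant of 8.05, so that the size of its difference depends on that constant (-4.41, or -3.06 with a constant of 32). Of the brightest members that were not called, the glycolytic enzyme Eno3 was at -1.08 (limma adjusted p = 0.0797) and Cox6a2, a respiratory subunit of striated muscle, at -0.75 (limma adjusted p = 0.234). The summed deposited intensity of the measured members was 10273 and 7205 in C57, 1207 and 810 in ICR, and 3117 and 2598 in DBA. Leaving out the ICR control array gave 7 members called lower, and leaving out ICR smoked gave 8.

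Heart muscle, which lines the pulmonary veins of mice, showed 1 called gene of 13 tested. Myl3, a ventricular and slow-fibre myosin light chain, read 520 and 410 in C57 and 33.9 and 13.7 in ICR (log2 -3.28, SE 0.26, limma adjusted p = 0.00105). The brightest members were not called: the cardiac actin Actc1 was at -0.11 (limma adjusted p = 0.846) and the atrial light chain Myl7 at -0.56 (limma adjusted p = 0.270). The median of 16 measured members was -0.16, or -0.24 after scaling to a common median. Of smooth muscle genes, 1 of 17 was called, Tpm2, a tropomyosin also found in skeletal muscle, at -1.59 (SE 0.32, limma adjusted p = 0.0436). Tpm2 was not called without either ICR array or without the C57 control array.

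Genes of stratified epithelium, the layered lining of skin and oesophagus, included 4 called lower and 1 higher of 12 tested. Over all 5735 genes tested, 86 were called lower and 50 higher. Mt4, the metallothionein of stratified squamous epithelium, read 219 and 312 in C57, 4.94 and 2.44 in ICR, and 74.6 and 4.07 in DBA. Both ICR values lay below the constant, and the difference was -4.14 (SE 0.64, limma adjusted p = 0.0159), or -2.80 with a constant of 32. Krt13, a keratin of suprabasal mucosal cells, read 160 and 413 in C57 and 10.8 and 7.18 in ICR (-3.44, SE 0.54, limma adjusted p = 0.0164), and its second probe set was at -3.90. The cell cycle checkpoint protein Sfn (-1.87) and the desmosome protein Pkp1 (-1.59) were the other members called lower.

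Sprr1b, a precursor of the cornified envelope, went the other way: it was higher in ICR by 1.01 after scaling (SE 0.17, limma adjusted p = 0.0226), although its deposited values overlapped, at 2499 and 3182 in C57 and 3993 and 3041 in ICR. Its other probe set read 0.549 and 9.86 in C57 and 0.911 and 0.498 in ICR, and did not pass the filter. Krt4, the partner keratin of Krt13 and the brightest member not called, was at -2.50 (limma adjusted p = 0.0547), and Fabp5, a fatty acid carrier, at 0.04. The median over all 26 measured members was -0.35, or -0.12 after scaling to a common median, and many of them, 14 of 26, did not pass the filter on low signal. In the fit without ICR control, and in that without ICR smoked, no member was called by limma, while 5 were called lower without C57 control. Krt5 and Krt14, the defining keratins of the basal layer, did not pass the filter, and the part of adjoining tissue in these differences was not tested.

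**Figure D2:**
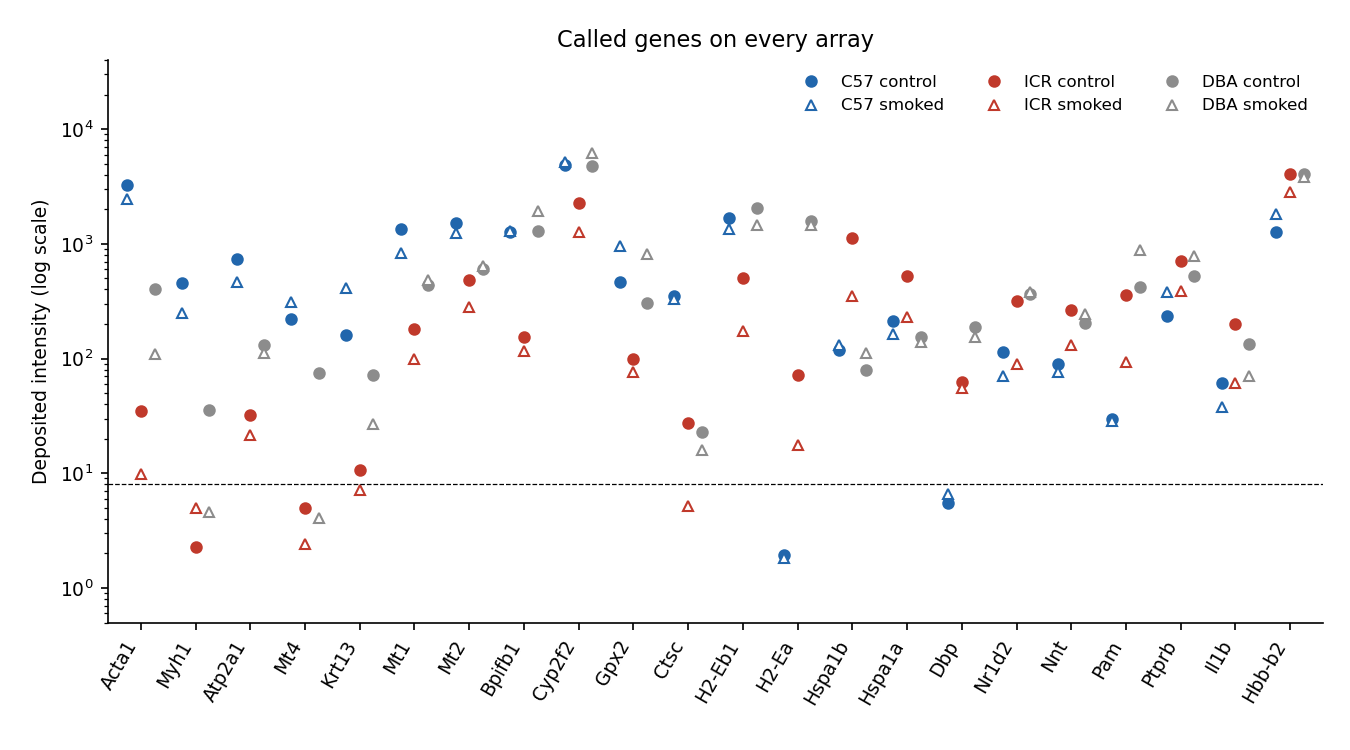
Deposited intensity (vertical log axis) of 22 called genes on each array, with C57 in blue, ICR in red and DBA in grey, filled circles for control and open triangles for smoked arrays, and the dashed line at the added constant of 8.05. Muscle, squamous and metallothionein genes on the left lie lower in ICR than in C57, and Hspa1b to Hbb-b2 on the right mostly lie higher.

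Airway epithelial genes were lower in ICR at several members. Of 10 club and goblet genes tested, 4 were called lower and 6 were not called, beside 86 lower of all 5735 genes. In both exposures 6 were lower and 3 higher, beside 1930 and 1717 of all genes. The median over 15 measured was -0.67, or -0.28 after scaling to a common median. In the control pair alone it was -0.37 and in the smoked pair -0.24. Bpifb1, a secreted lipid-binding protein of airway secretory cells, read 1262 and 1286 in C57, 155 and 117 in ICR, and 1286 and 1924 in DBA. Its ICR values stood apart from both other strains (-2.33, SE 0.22, limma adjusted p = 0.00149 against C57). The antimicrobial lectin Reg3g (-1.57), the mucus-associated trefoil peptide Tff2 (-1.52) and the club cell cytochrome P450 Cyp2f2 (-0.85, SE 0.17, limma adjusted p = 0.0435) were the other 3. The brightest members not called, Scgb1a1 and Aldh1a1, were at 0.11 and 0.15, and scaling itself keeps the difference of Scgb1a1 small. When ICR control was left out, Bpifb1 alone was called.

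Of 8 ciliated cell genes tested, 2 were called lower and 6 were not called, and 7 were lower in both exposures, beside 1930 of all 5735 genes. The median over 11 measured was -0.91. Rsph1, a radial spoke protein of motile cilia, read 653 and 602 in C57 and 173 and 85.6 in ICR, with no overlap (-1.47, SE 0.22, limma adjusted p = 0.0129). The axonemal kinesin Kif9 was at -1.54 (SE 0.29, limma adjusted p = 0.0358). Foxj1, the master transcription factor of motile cilia, was the brightest member not called (-1.28, limma adjusted p = 0.0510), and Cfap20, also outside the call, was at 0.18 with opposite signs in the 2 exposures. In the fit without ICR control none of these genes was called, and without C57 control 1.

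Metallothioneins are small cysteine-rich proteins that bind zinc and other metals. Of these, Mt1, Mt2 and Mt4 were called lower in ICR and Mt3 was not called. Mt1 and Mt2 are ubiquitous and are induced through metal response elements, short DNA motifs bound by the zinc-sensing factor MTF1. Their upstream sequences are shown because both were called. They lie in 1 cluster on chromosome 8 with Mt4, which was called, and Mt3, which was not. The sequences are the 250 bases before each gene's start in RefSeq (GRCm38.p6), 5′ to 3′ on the gene's strand, and capitals mark matches on either strand to TGCGCNC or TGCACNC, the core of that element. Mt1 lies at chr8:94178839-94179088 and Mt2 at chr8:94172368-94172617, both on the plus strand.
Mt1: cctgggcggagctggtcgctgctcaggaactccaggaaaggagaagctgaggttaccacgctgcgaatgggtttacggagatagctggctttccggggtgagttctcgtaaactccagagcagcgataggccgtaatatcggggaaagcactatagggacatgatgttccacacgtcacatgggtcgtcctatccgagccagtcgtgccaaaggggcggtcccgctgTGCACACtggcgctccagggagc
Mt2: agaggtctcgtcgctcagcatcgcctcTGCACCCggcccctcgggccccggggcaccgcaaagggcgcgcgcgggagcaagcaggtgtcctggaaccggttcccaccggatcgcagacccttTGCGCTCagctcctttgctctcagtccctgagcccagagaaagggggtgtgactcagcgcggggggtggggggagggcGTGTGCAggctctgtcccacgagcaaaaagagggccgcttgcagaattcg
The window of Mt1 held 1 match and that of Mt2 held 3, while TGCGCNC was found in 12.5% and TGCACNC in 10.4% of 32851 windows of the same length. Windows of Mt4, Mt3 and Dbp, a clock gene described below, held 1, 0 and 4 matches. Only the 250 bases before each annotated start were searched, so the counts are not those of whole promoters. A match is a description of the letters and not of binding.

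Mt1 read 1336 and 832 in C57, 182 and 98.3 in ICR, and 434 and 485 in DBA. ICR was 4.24-fold lower than C57 (log2 -2.08, SE 0.25, limma adjusted p = 0.00408) with no overlap. Mt2 read 1512 and 1254 in C57 and 486 and 280 in ICR, also without overlap, and was 2.08-fold lower (log2 -1.06, SE 0.21, limma adjusted p = 0.0436). Slc39a4, the zinc importer of epithelia, read 931 and 1019 in C57, 248 and 117 in ICR, and 761 and 1048 in DBA (-1.62, SE 0.21, limma adjusted p = 0.00655). Its second probe set was at -0.76 and was not called.

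With Mt4 these made 4 of 8 tested metal genes called lower, beside 86 of all 5735 genes. The median over 9 measured was -0.63. Mt3, the metallothionein best known from brain, was at 0.16 (limma adjusted p = 0.863) and the zinc importer Slc39a1 at -0.63 (limma adjusted p = 0.237). Leaving out ICR control left only Slc39a4 called, leaving out ICR smoked 2 members, and leaving out either C57 array 3.

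NRF2 is the transcription factor that induces glutathione and NADPH enzymes on oxidant stress. Of 35 of its targets and glutathione genes tested, 2 were called lower and 33 were not called, while 25 were lower in both exposures and 4 higher in both, beside 1930 and 1717 of all 5735 genes. The median over 39 measured was -0.41, or -0.61 after scaling to a common median. Gpx2, an epithelial glutathione peroxidase, read 464 and 958 in C57, 98.5 and 75.7 in ICR, and 307 and 812 in DBA. After scaling it was higher on the smoked than on the control array in each strain, at log2 values of 8.60 and 9.72 in C57, 6.83 and 7.43 in ICR, and 8.10 and 9.22 in DBA, although not in ICR as deposited. It was lower in ICR than in C57 by 2.03 (SE 0.24, limma adjusted p = 0.00408). Gsto1, an omega-class glutathione transferase, read 1543 and 1544 in C57 and 460 and 239 in ICR (-1.36, SE 0.22, limma adjusted p = 0.0189). The 2 brightest others were not called, the ferritin heavy chain Fth1 at 0.19 and the transferase Gstm1 at -0.34. Without either ICR array, or without the C57 control array, only 1 member was called.

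Of 25 phase I enzymes, which oxidize foreign compounds, 3 were called lower and 22 were not called, beside 86 lower of all 5735 genes. Cyp1b1, a P450 induced by aryl hydrocarbons, read 124 and 638 in C57, 35.1 and 52.1 in ICR, and 47.1 and 319 in DBA (-1.76, SE 0.30, limma adjusted p = 0.0212). The strains did not overlap, and the smoked arrays were the further apart, at -2.19 against -1.34 for the control arrays, a difference that was not tested. Cyp2s1, a related P450 of epithelia, was at -1.36 (SE 0.26, limma adjusted p = 0.0361), and Cyp2f2 was the third. Aldh1a1 and Cyp4b1, the brightest members not called, were at 0.15 and 0.09. Adh7, the alcohol dehydrogenase of upper digestive and airway epithelium, was among the largest differences over all genes. It read 612 and 830 in C57 and 77.1 and 50.5 in ICR (-2.55, SE 0.23, limma adjusted p = 0.00123). With ICR smoked left out none of the 25 was called, and with ICR control left out 1.

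Among other antioxidant enzymes, 1 of 17 was called higher and 1 lower. Sod1, the cytosolic superoxide dismutase, read 2932 and 2382 in C57 and 123 and 373 in ICR (-2.78, SE 0.53, limma adjusted p = 0.0356), with a wider gap in the control pair (-4.18) than in the smoked pair (-1.39). Nnt, the mitochondrial transhydrogenase that makes NADPH, is known for a deletion carried by 1 C57BL/6 substrain. It read 90.1 and 76.9 in C57, 263 and 132 in ICR, and 202 and 242 in DBA, and was higher in ICR by 1.82 (SE 0.24, limma adjusted p = 0.00655). Gpx3, the secreted glutathione peroxidase, was at -0.01 and thioredoxin Txn1 at 0.40, neither called. Neither Sod1 nor Nnt was called without ICR control.

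Heat shock genes encode chaperones that refold proteins, and their inducible members carry heat shock elements bound by HSF1. Hspa1a and Hspa1b, the inducible HSP70 genes, neighbour each other on chromosome 17 and were both called higher. Their upstream sequences are shown because the genes are near-identical copies whose probe sets cannot be taken as independent. Both are on the minus strand of GRCm38.p6 (RefSeq), Hspa1a at chr17:34972157-34972406 and Hspa1b at chr17:34959239-34959488. Capitals mark matches to GAANNTTC, an inner part of the heat shock element.
Hspa1a: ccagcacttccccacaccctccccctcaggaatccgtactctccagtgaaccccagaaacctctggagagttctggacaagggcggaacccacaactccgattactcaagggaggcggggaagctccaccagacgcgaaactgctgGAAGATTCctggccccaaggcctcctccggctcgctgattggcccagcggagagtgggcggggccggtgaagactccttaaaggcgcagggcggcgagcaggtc
Hspa1b: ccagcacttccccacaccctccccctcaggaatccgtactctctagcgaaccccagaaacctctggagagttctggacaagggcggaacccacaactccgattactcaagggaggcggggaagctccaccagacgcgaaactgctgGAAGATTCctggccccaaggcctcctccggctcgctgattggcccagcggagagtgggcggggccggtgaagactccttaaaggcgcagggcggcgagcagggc
The 2 windows were identical at 247 of 250 bases, and each held 1 match, 104 bases before the start. GAANNTTC was found in 6.69% and TTCNNGAA in 7.17% of 32851 windows.

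Hspa1b read 119 and 131 in C57, 1134 and 353 in ICR, and 78.7 and 112 in DBA. It was 8.08-fold higher in ICR than in C57 (log2 3.02, SE 0.29, limma adjusted p = 0.00149), and the strains did not overlap. Hspa1a read 213 and 163 in C57, 521 and 230 in ICR, and 154 and 138 in DBA, and was 3.10-fold higher (log2 1.63, SE 0.23, limma adjusted p = 0.0102). Of 24 chaperone genes tested these were the 2 called higher, and 1 was called lower, Hspb8, a small heat shock protein of muscle, at -1.32 (SE 0.25, limma adjusted p = 0.0358). Over all 5735 genes tested, 50 were called higher and 86 lower.

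The list median was 0.10 over 25 measured, or -0.08 after scaling to a common median. The constitutive Hsp90aa1 (-0.12) and Hspa8 (0.58) were not called. Leaving out either ICR array left 1 member called higher, Hspa1b. Hspb8 was lost without ICR control and without C57 control.

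Immediate early genes, transcribed within minutes of a stimulus, had 1 of 26 called. Jun, a subunit of the AP-1 transcription factor, was higher in ICR by 1.03 after scaling (SE 0.22, limma adjusted p = 0.0492), with overlapping deposited values of 332 and 345 in C57 and 546 and 291 in ICR. The related Jund (0.71) and the stress-induced Ier3 (-0.05) were not called. The list median was 0.35 over 29 measured, and 16 of 26 tested members were higher in both exposures, beside 1717 of all 5735 genes. Jun was not called without any 1 of the 4 arrays compared.

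Circadian clock output genes are transcribed rhythmically by CLOCK and BMAL1 and feed back on them, and no label gives the time of day at which lungs were taken. Of 9 tested, 2 were called higher in ICR and 7 were not called, with a median of 0.64. Dbp, a PAR bZIP transcription factor known for its strong rhythm in mouse tissues, read 5.46 and 6.56 in C57, 62.3 and 54.9 in ICR, and 188 and 153 in DBA. The C57 values lay below the constant, and the difference was 2.79 (SE 0.36, limma adjusted p = 0.00655), or 3.70 and 1.69 with constants of 1 and 32. Nr1d2, a nuclear receptor that represses Bmal1, read 114 and 70.7 in C57 and 316 and 89.8 in ICR, with overlap as deposited, and was higher by 1.57 after scaling (SE 0.25, limma adjusted p = 0.0167).

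The brightest members not called were Per1, a period gene, at 0.64 (limma adjusted p = 0.240) and Tef, a PAR bZIP relative of Dbp, at -0.58 (limma adjusted p = 0.317). Without scaling the list median was -0.14, which is 0.46 above that of all genes. Nr1d2 was lost without the ICR control array and Dbp without the ICR smoked array. None of the 4 clock activators tested was called by limma, and 1 had an unadjusted p below 0.05. The windows upstream of Dbp and Nr1d2 held no match to CACGTG, TTATGTAA or TAGGTCA, the core E-box, D-box and ROR-type motifs, which occur in 6.02%, 0.819% and 2.23% of windows. The windows of the 2 starts listed for Per1 held 1 CACGTG between them, and the 2 of Tef held 1 each.

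Genes of the major histocompatibility complex differed by member. MHC class II presents peptides to helper T cells through paired alpha and beta chains. H2-Ea, an alpha chain gene that several laboratory strains carry in a form that is not expressed, read 1.96 and 1.83 in C57, 71.6 and 17.7 in ICR, and 1594 and 1450 in DBA. Both C57 values lay below the constant. The difference between ICR and C57 was 2.65 (SE 0.29, limma adjusted p = 0.00295), or 4.24 and 1.38 with constants of 1 and 32. DBA was higher than ICR too, by 4.31 (limma adjusted p = 0.000394).

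H2-Eb1, the beta chain that pairs with it and its neighbour on chromosome 17, went the other way, at 1675 and 1356 in C57, 508 and 173 in ICR, and 2043 and 1462 in DBA (-1.47, SE 0.21, limma adjusted p = 0.0102). These were the 2 called of 11 class II genes tested, and the median over 12 measured was -0.38. The invariant chain Cd74 was at 0.03 in the control pair and -0.04 in the smoked pair (limma adjusted p = 0.998) and H2-Aa at -0.28 (limma adjusted p = 0.523). In the fit without ICR control neither gene was called, and H2-Eb1 was not called without the ICR smoked array. In class I, H2-D1 had 1 probe set called higher (2.52) that read 282 and 270 in C57 and 1168 and 755 in ICR, whereas its other 2 probe sets, at 3270 to 3868 in C57 and 2455 to 3115 in ICR, differed by 0.34 and 0.39 and were not called. Class I genes are a multigene family, so the probe sets of H2-D1 may read related genes as well.

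Of 22 cytokine and chemokine genes tested, 4 were called higher and 18 were not called, beside 50 higher of all 5735 genes. Il1b, an inflammatory cytokine of myeloid cells, read 61.0 and 37.7 in C57 and 201 and 61.3 in ICR, with adjacent but separate values (1.74, SE 0.27, limma adjusted p = 0.0167). The inflammasome cytokine Il18 (1.52), the neutrophil attractant Cxcl1 (1.74) and the stromal chemokine Cxcl12 (1.48) were also higher in both exposures. The other 2 probe sets of Cxcl12 were at 0.97 and 0.42 and were not called. The median over 42 measured was 0.18, or 0.31 after scaling to a common median. Of the brightest members not called, Cx3cl1 was at -0.36 and Ltb at 1.06. The 4 were not called without the ICR control or the ICR smoked array, and without the C57 control array only Cxcl12 of the 4 was.

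Endothelial genes had 1 of 23 called, Ptprb, a receptor phosphatase of vessels, which read 236 and 382 in C57 and 704 and 388 in ICR (1.54, SE 0.24, limma adjusted p = 0.0149). The bright endothelial genes Eng and Ramp2 were at 0.10 and 0.23 and had opposite signs in the 2 exposures. Emp2, a membrane protein of alveolar type I cells, was the 1 called of 8 genes of that cell, at 1.15 (SE 0.20, limma adjusted p = 0.0244). Its deposited values overlapped, at 426 and 652 in C57 and 768 and 591 in ICR. Of 8 erythroid genes tested, Hbb-b2, an adult beta-globin that has a near-identical copy in some strains, was called higher. It read 1256 and 1816 in C57 and 4081 and 2844 in ICR (1.89, SE 0.22, limma adjusted p = 0.00374), whereas the alpha-globin Hba-a1 (0.42) and the haem synthesis enzyme Alas2 (1.18) were not called. None of Ptprb, Emp2 and Hbb-b2 was called without ICR control, and Emp2 and Ptprb were lost without the C57 control array too. Emp2 was also lost without the ICR smoked array.

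Other lists had few members called. Called singly and higher were Mfap4, an elastic fibre protein (1.36, 31 tested in its list) and the complement inhibitor Cd59a (2.0, 15 tested). The endothelial protein C receptor Procr (1.33) was the 1 called of 14 coagulation genes, also higher. Called singly and lower were the interferon-induced protease Usp18 (-1.38, 24 tested), cyclin Ccnd1 (-1.13, 18 tested) and the p53 target Perp (-1.15, 23 tested). Of 19 glucocorticoid response genes tested, the induced kinase Sgk1 (1.43, with overlap as deposited) was called higher and Mt2 (-1.06) lower. Of these, only Cd59a was called without the ICR control array. In 14 of the 44 lists no member was called: among 190 genes tested in them, 47 had an unadjusted p below 0.05 in limma, beside 1057 of 5735. Their medians ran from -0.75 for 7 mesothelial genes to 0.50 for 22 genes of alveolar macrophages, and they included neutrophil (0.03), B cell (-0.13), T and NK cell (0.24), MHC class I (0.13) and respiratory chain genes (-0.03). With scaling to a common median these became 0.35, -0.02, 0.28, -0.05 and -0.22, so the direction of MHC class I turned.

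**Figure D3:**
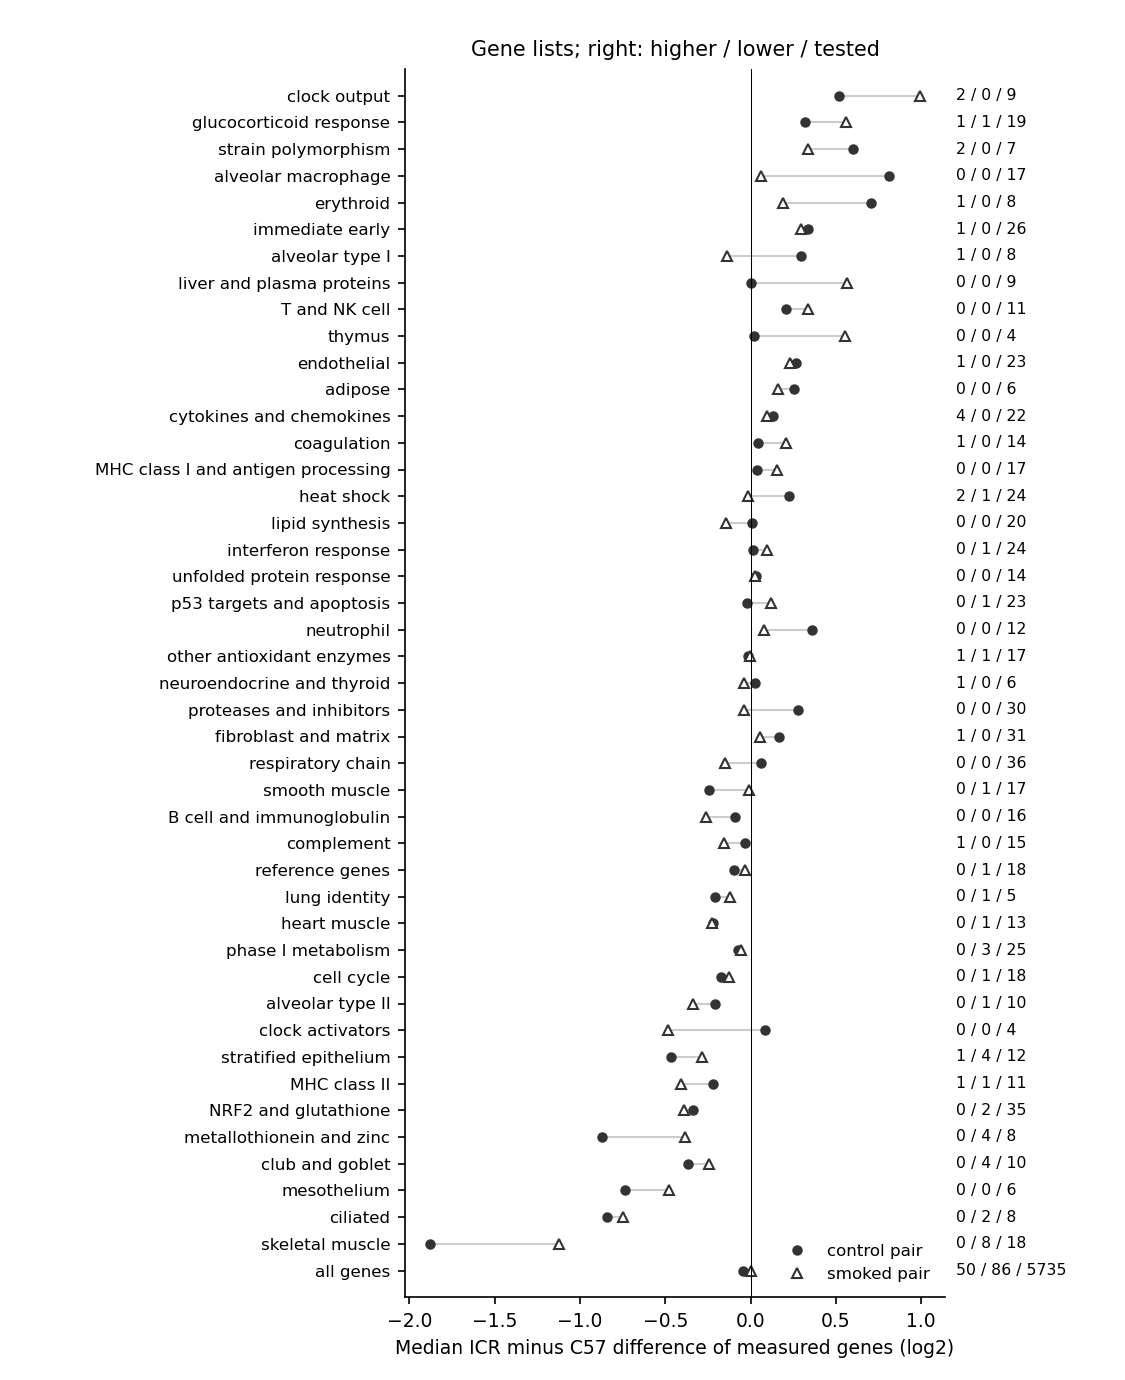
Median ICR minus C57 difference (log2, horizontal axis) of the measured genes of each list in the control pair (circles) and the smoked pair (triangles), with the members called higher, called lower and tested on the right. Skeletal muscle lies lowest, at -1.88 and -1.12, and clock output highest in the smoked pair, at 0.997.

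Over all probe sets, whether in a list or not, the one with the largest increase is assigned to several genes and is named by none. It read 6.6 and 8.25 in C57, 579 and 287 in ICR, and 11.3 and 16.7 in DBA (5.31, SE 0.29, limma adjusted p = 0.000169). Pam, the enzyme that amidates peptide hormones, read 29.6 and 28.6 in C57, 358 and 93.7 in ICR, and 423 and 884 in DBA (2.99, SE 0.37, limma adjusted p = 0.00544). Gatm, which makes the precursor of creatine, read 30.3 and 20 in C57 and 151 and 96.4 in ICR (2.59, SE 0.33, limma adjusted p = 0.00597). Neither overlapped, but Pam was not called without the ICR control array.

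The others of the 15 largest increases with a level above the constant on all 4 arrays were the membrane protein Itm2a (2.20), the actin regulator Cap1 (2.18), the sulfotransferase Chst2 (2.15), the transcription factor Sp1 (2.10), the Mediator subunit Med1 (2.09), the kinase subunit Csnk2a2 (2.01), the glutamate receptor Gria1 (1.95), the YAP relative Wwtr1 (1.94), the aspartic protease Ctse (1.93) and the splicing factor Sf3b1 (1.92). The other probe sets of Ctse were at -0.04 and -0.22, those of Csnk2a2 at 0.07 and 0.10, and those of Chst2, Wwtr1 and Sf3b1 at 0.54, 0.93 and 0.80, and none of them was called. Deposited values of Wwtr1 overlapped, at 66.6 and 123 in C57 and 441 and 111 in ICR. Of the 10 genes from Itm2a to Sf3b1, only Sp1 was called without the ICR control array. DBA was not like C57 at several of these: DBA exceeded C57 for Pam by 3.78 and for Cap1 by 2.82, but was at 0.06 for Itm2a, where ICR exceeded DBA by 2.13 (limma adjusted p = 0.0123). Of the 69 probe sets higher in ICR, DBA lay nearer to ICR at 36 and nearer to C57 at 33.

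Among the decreases, Sdc4, a cell surface proteoglycan (-2.72), Syt5, a synaptotagmin (-2.61), Pttg1, the securin of chromosome separation (-2.38), the probe set annotated to the microRNA gene Mir686 (-2.32) and Actn1, a non-muscle alpha-actinin (-2.48), were among the 15 largest. Sdc4 and Syt5 were not called without the ICR control array. Pttg1 read 828 and 646 in C57, 138 and 37.6 in ICR, and 182 and 191 in DBA, so that both other strains lay below C57. Of the 101 probe sets lower in ICR, DBA lay nearer to ICR at 53 and nearer to C57 at 48.

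Probe sets of the same gene often did not give the same difference. Of 30 called genes with more than 1 probe set kept, the 37 other probe sets had the same sign in 23 cases, reached at least 0.5 times its size in 8 and were called in 3. For 22 genes no other probe set reached that size, and for 12 genes at least 1 had the opposite sign. Ctsc, a lysosomal protease that activates granule enzymes, was chosen after its values were seen. Of its kept probe sets, 1 read 348 and 327 in C57, 27.7 and 5.17 in ICR, and 22.9 and 15.8 in DBA (-3.46, limma adjusted p = 0.00149). The other kept one read 227 and 280 in C57 and 635 and 140 in ICR (1.04, limma adjusted p = 0.151). A further Ctsc probe set did not pass the filter and was at -1.95. It read 87.8 and 62.0 in C57, 8.33 and 6.89 in ICR, and 2.57 and 3.30 in DBA.

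Similar splits were found for Actn1, whose called probe set was at -2.48 and whose others were at 0.00 and 1.08, and for Ccnd1, at -1.13 and 1.87. Both probe sets of beta-actin (Actb) among the genes were lower in ICR, at -4.85 and -3.0, with readings of 218 to 1270 on the C57 arrays and 7.31 to 31.2 on the ICR arrays. The control probe set at the 3' end of that transcript gave 3272 and 4552 for C57, and 6064 and 2736 for ICR. Krt13, Atp2a1 and Actb each had both probe sets called in the same direction.

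**Figure D4:**
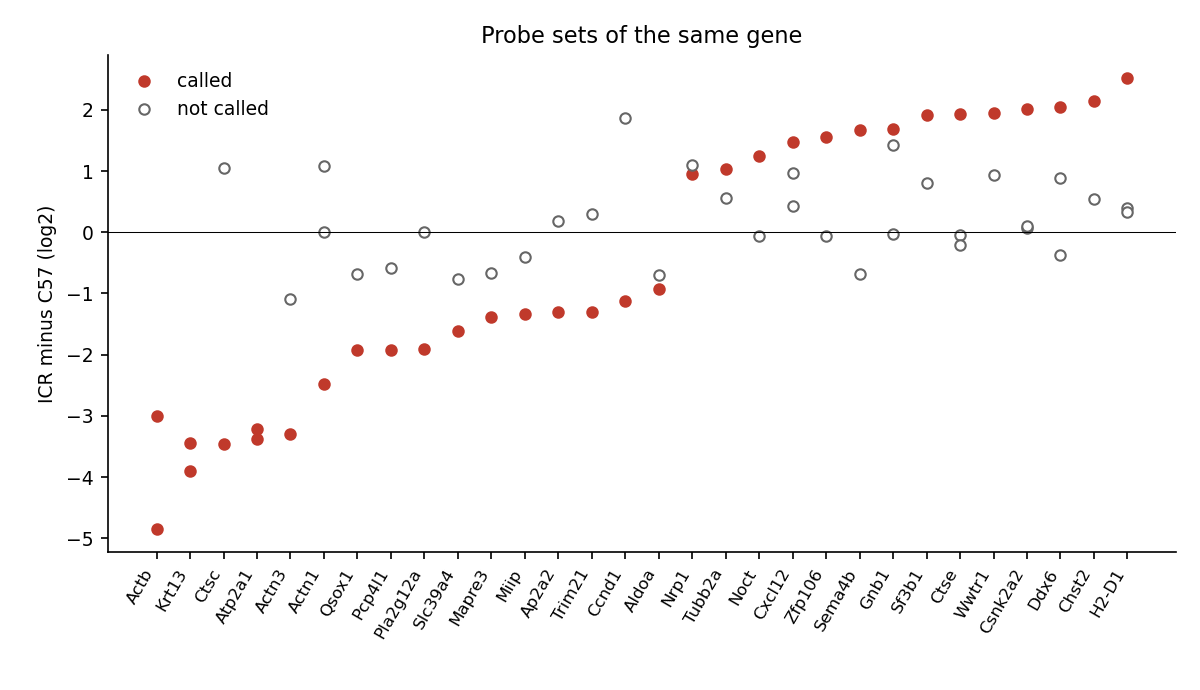
ICR minus C57 difference (log2, vertical axis) of every kept probe set of 30 called genes with more than 1, filled where called and open where not. For Ctsc the 2 probe sets lie at -3.46 and 1.04, and for Krt13 at -3.90 and -3.44.

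Called genes lay on most chromosomes. Of 5727 genes tested with a chromosome in the RefSeq annotation (GRCm38.p6), 145 had a called probe set (2.53%). Chromosome 7 held 19 called of 443 tested, 16 of them lower, and chromosome 1 held 14 of 301. Counted among the genes tested, 5 pairs of called genes neighboured each other. These were H2-Eb1 with H2-Ea, Hspa1b with Hspa1a, and D17H6S56E-5 with Vars on chromosome 17, Abcd3 with Abca4 on chromosome 3, and Mt2 with Mt1 on chromosome 8.

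H2-Eb1 and H2-Ea differed in opposite directions, and each of the other pairs in the same direction. Abcd3, a peroxisomal fatty acid transporter, read 1384 and 1517 in C57, 286 and 117 in ICR, and 445 and 621 in DBA (-2.09, SE 0.22, limma adjusted p = 0.00241), and its neighbour Abca4, a retinoid transporter, was at -1.81 (limma adjusted p = 0.0212) and was not called without any 1 of the 4 arrays compared. D17H6S56E-5 read 199 and 213 in C57, 13 and 7.31 in ICR, and 139 and 199 in DBA (-3.03, SE 0.26, limma adjusted p = 0.00120). Vars, a valyl-tRNA synthetase beside it, read 315 and 329 in C57 and 62.4 and 48.9 in ICR (-1.61, SE 0.25, limma adjusted p = 0.0167), and was not called without the ICR control or without the C57 control array. For both genes of that pair the ICR values stood apart from C57 and from DBA.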

How the data were processed

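Lung RNA was hybridised to 6 Affymetrix arrays, 1 per strain (C57, DBA, ICR) and exposure. Per the labels' protocols, Trizol-extracted RNA was primed with oligo(dT) and labelled with biotin. The deposited values are the authors' probe set intensity on a linear scale, with the summary method, software, scaling and genome build unstated in the sources used. Members and gene lists were chosen with earlier results of these data known.

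Of 12488 probe sets, 66 controls were left out. A constant of 8.05, which is the 20th percentile over the 6 arrays, was added before log2, and arrays were quantile scaled. Fold changes are on that scale, which understates changes of dim genes. A filter at the 40th percentile of the mean left 7453. limma 3.58.1 in R 4.3.3 fitted strain and exposure to all 6 arrays (2 residual degrees of freedom), with eBayes and a mean trend, 2-sided, and Benjamini-Hochberg adjustment. The prior of eBayes, shared over probe sets, had a median of 6.86 degrees of freedom. A probe set was called at an adjusted p below 0.05. In simulated data, with 50 of 7453 probe sets changed at each size, this comparison found 8% of changes of 2-fold, 64% at 4-fold, 92% at 8-fold and 96% at 16-fold. The simulated noise was independent, with each probe set's residual spread and no exposure effect.

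A single gene symbol was given for 10855 probe sets, several for 396 and none for 1237, and 10839 matched RefSeq by gene identifier. A gene was represented by its brightest probe set in list counts, list medians use all measured members, and 855 of 1083 genes in 44 lists were measured. Named genes were the 15 largest differences each way above the constant on all 4 arrays, called genes with both arrays of a strain below it, every called list member and the 2 brightest uncalled members of described lists, their other probe sets, and neighbouring called genes. Which lists are described was decided after values were seen. Alternatives changed the constant, filter, scaling, variance prior, arrays and exposure term. Plots used matplotlib 3.10.9 in Python 3.11.15.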

Additional observations from a re-analysis of the deposited data

Results flagged for a closer look

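The ICR minus C57 difference had opposite signs in the control pair and the smoked pair for some named genes or other probe sets of named genes, none of which was called. Each pair has 1 array a strain, so the difference between the exposures was not tested. All values are log2 differences, first of the control pair and then of the smoked pair. Fabp5 went from 0.21 to -0.12, a shift of -0.33, and Hsp90aa1 went from 0.0551 to -0.29, a shift of -0.34. Hspa8 went from 1.16 to -0.00439, a shift of -1.16, and Ier3 went from 0.53 to -0.63, a shift of -1.15. Cd74 went from 0.0321 to -0.035, a shift of -0.0672, and Scd1 went from 0.59 to -0.34, a shift of -0.93. Cfap20 went from 0.45 to -0.0876, a shift of -0.54, and Eng went from -0.38 to 0.59, a shift of 0.96. Ramp2 went from -0.0375 to 0.51, a shift of 0.54, and Fth1 went from 0.42 to -0.0288, a shift of -0.45. Gstm1 went from -0.69 to 0.0108, a shift of 0.70, and Gpx3 went from -0.0394 to 0.0181, a shift of 0.0575. A second probe set of Actn1 went from -0.25 to 0.26, a shift of 0.51, and a second probe set of Slc39a4 went from -1.85 to 0.32, a shift of 2.17. A second probe set of Ctse went from 0.11 to -0.19, a shift of -0.30, and yet another probe set of Ctse went from 0.19 to -0.62, a shift of -0.82. A second probe set of Csnk2a2 went from -0.12 to 0.32, a shift of 0.44. With 2 arrays a strain, no array could be tested as an outlier of its group.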

How the results depend on the processing

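Arrays were paired across strains by exposure, as a term of the fit, and without it 228 probe sets were called (97 higher, 131 lower). Every array has replicate number 1, so no block by that number could be made. Of 81 named called probe sets, none changed sign under any alternative, and 21 (20 genes) were called under every alternative that tested them. Calls numbered 44 (12 higher, 32 lower) without the filter, 7 higher without scaling, 179 lower after scaling to a common median, 43 higher without a mean trend in the variance prior, and 472 (238 higher, 234 lower) with only the 4 ICR and C57 arrays. With each array left out they ranged from 35 to 437, from 10 to 223 higher and from 25 to 216 lower. Leaving out the ICR control array, 34 of its 35 calls were shared with the 170. The correlation between exposures was 0.431 and 0.468 with constants of 1 and 32, 0.330 without the filter, 0.498 with the stricter filter, and 0.480 without scaling or with a common median. The count at least 2-fold different in both pairs was 122 with a constant of 32, 287 without the filter, 117 with the stricter filter, 850 without scaling, and 64 and 692 at thresholds of 3-fold and 1.5-fold. Over all listed genes, 20 were called higher and 35 lower. These were 7 and 16 without the filter, 51 and 61 with only the 4 arrays, and 5 higher without scaling. With each array left out they ranged from 3 to 51 higher and from 13 to 57 lower. Their median was -0.63 without scaling, -0.0373 after scaling to a common median, and -0.0373 to 0.00402 with each array left out. Differences of genes that were not called also moved. Without scaling these changed sign: Scgb1a1 -0.21, Fabp5 -0.73, Per1 -0.14, Hspa8 -0.26, Scd1 -0.64, Aldh1a1 -0.48, Cfap20 -0.59, Eng -0.54, Ramp2 -0.55, Hba-a1 -0.0307, Cyp4b1 -0.65, Fth1 -0.58, Txn1 -0.37, Mt3 -0.63, H2-D1 (other probe set) -0.36, Chst2 (other probe set) -0.038, Actn1 (other probe set) -0.79, Cxcl12 (other probe set) -0.18, Csnk2a2 (other probe set) -0.66, H2-D1 (other probe set) -0.38, Csnk2a2 (other probe set) -0.48. After scaling to a common median these changed sign: Sftpc 0.17, Fabp5 -0.14, Scd1 -0.0491, Cyp4b1 -0.0588, Mt3 -0.0432, Actn1 (other probe set) -0.20, Csnk2a2 (other probe set) -0.0716. With each array left out in turn, these changed sign at least once, with ranges of: Actc1 -0.37 to 0.15, Actn1 (other probe set) -0.22 to 0.22, Cd74 -0.18 to 0.18, Cfap20 -0.20 to 0.57, Csnk2a2 (other probe set) -0.0094 to 0.15, Csnk2a2 (other probe set) -0.13 to 0.32, Ctse (other probe set) -0.16 to 0.0792, Ctse (other probe set) -0.69 to 0.26, Cyp4b1 -0.00361 to 0.19, Eng -0.38 to 0.59, Fabp5 -0.22 to 0.31, Fth1 -0.0618 to 0.45, Gpx3 -0.0578 to 0.0365, H2-Aa -0.57 to 0.0139, Hsp90aa1 -0.39 to 0.16, Ier3 -0.52 to 0.42, Mt3 -0.31 to 0.63, Scd1 -0.36 to 0.61, Slc39a4 (other probe set) -1.83 to 0.30. The cause was not tested. At this number of arrays the test recovered 8% of simulated 2-fold changes, so in that setting differences of that size were mostly missed. The simulation had independent noise, no exposure effect and no array of lower quality, so recovery on these arrays was not measured.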
